A study of Homo sapiens with 4 samples.

Results

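The genes described are the translation initiation and elongation factors, the proteins that bring the ribosome to an mRNA, set it on the start codon and move it along the coding sequence. They were taken from the gene table as every symbol of letters and digits only that begins with *EIF1* to *EIF6* or with EEF1 or *EEF2*. The kinases, repressors and methyltransferases named after these factors were thus included, and symbols with a hyphen were not. After 2 pseudogene symbols, *EEF1DP3* and *EIF3IP1*, were dropped, 70 of 28278 gene symbols remained. RNA-seq of polyA RNA was measured in 4 libraries of cells labelled HepG2, a human liver cancer cell line. The 2 control libraries came from cells infected with a lentivirus that carried Cas9 and a control sgRNA, and the 2 libraries labelled sgUSP22 from cells that received Cas9 and an sgRNA against *USP22*, which encodes the deubiquitinase of the SAGA co-activator complex. Both groups were stable cell populations made by infection, the knockout with 1 sgRNA. All 4 libraries were from cells exposed to 10 µM Sorafenib, a kinase inhibitor given in liver cancer, for 24 h, and cells without the drug are not analysed here. The comparison asks how the transcriptome under Sorafenib differs between the control and sgUSP22 groups.

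The libraries held 62030307 to 64728272 counts, and a count of 0 allows up to 3 counts, for counting error only. The 2 libraries of a group did not hold the same counts. Nothing in the labels says that replicates came from separate cultures, so p-values measure the spread between these libraries, which may be technical. The targeted transcript, *USP22*, was not lower in the libraries labelled sgUSP22 (log2 fold change 0.22, SE 0.034, edgeR adjusted p = 0.000394). The paper checked the knockout by Western blot, at the protein level, which these RNA counts do not measure. Every direction below follows the label. Of 23 hepatocyte markers, 12 were at 0 in all 4 libraries, *ALB*, *APOA1*, *APOB* and *TTR* among them, and the whole list summed to 1257 to 1401 counts a library. Nearly all of this sum was *FOXA1* (969 and 1030 against 764 and 777 counts) and *CEBPA* (388 and 336 against 510 and 449). The 6 fibroblast markers summed to 39357 and 39967 counts in control and 59120 and 58186 in sgUSP22 libraries. Of these *COL3A1* (30410 and 31662 against 37872 and 36728 counts), *LUM* (4283 and 3743 against 11988 and 12071) and *DCN* (624 and 585 against 5191 and 4996) were higher. *PDGFRB* was lower (548 and 551 against 324 and 266), *COL1A1* was not called and *COL1A2* had 0, 0, 7 and 0 counts. The leukocyte list, nearly all of it *CD68*, summed to 4498 and 4610 against 3082 and 2835. The 3 endothelial markers summed to 8 to 33 counts. The part of other cell types in the results below was not tested, and fewer cells of a type cannot be told apart from less RNA per cell.

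Translation begins when the factor eIF2, bound to GTP, delivers the initiator tRNA to the small ribosomal subunit, together with eIF1, eIF1A, eIF3 and eIF5. The cap-binding complex eIF4F recruits the mRNA, the loaded subunit scans to the start codon, and eIF5 triggers GTP hydrolysis by eIF2 there, after which eIF5B joins the large subunit. The exchange factor eIF2B reloads eIF2, and 4 stress kinases block this by phosphorylating eIF2 alpha. In elongation eEF1A brings each aminoacyl-tRNA, eEF1B recycles it, and eEF2 moves the ribosome by a codon, which the kinase eEF2K inhibits. Many mRNAs of this machinery belong to the TOP class, whose 5′ end is a C followed by an unbroken run of pyrimidines and whose translation depends on mTOR signalling.

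The start sites of 9 members with such a run are shown because the class is defined by these letters and includes the most abundant members. Each window holds the 15 bases before and the 15 bases from the first transcribed base on, on the transcribed strand of GRCh38.p14, with the pyrimidine run at the RefSeq start in capitals.
EEF1A1, chr6:73521018-73521047, minus strand: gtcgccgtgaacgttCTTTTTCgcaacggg
EEF2, chr19:3985449-3985478, minus strand: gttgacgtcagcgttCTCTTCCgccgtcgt
EEF1B2, chr2:206159880-206159909, plus strand: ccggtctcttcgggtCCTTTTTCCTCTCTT
EIF4B, chr12:53006441-53006470, plus strand: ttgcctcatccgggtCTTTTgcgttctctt
EIF4A2, chr3:186783562-186783591, plus strand: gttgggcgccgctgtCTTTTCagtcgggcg
EIF3F, chr11:7987322-7987351, plus strand: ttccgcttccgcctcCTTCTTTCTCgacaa
EIF3K, chr19:38619173-38619202, plus strand: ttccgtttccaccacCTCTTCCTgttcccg
EIF2S3, chrX:24054941-24054970, plus strand: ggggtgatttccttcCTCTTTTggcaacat
EIF2A, chr3:150546772-150546801, plus strand: tcacccgagcggtttCTCTTTCCgggacaa
The windows of *EIF5* and *EEF2K*, which had the largest increases, and of *EIF2AK2*, which had the largest decrease, have no pyrimidine run at the RefSeq start and are given for contrast. *EIF5* has 2 starts in the table used, of which the upstream one is shown. *EEF1B2* also has a start without a run, upstream of the one shown.
EIF5, chr14:103334222-103334251, plus strand: gcggcggcgttgttcagtcagagcgagaac
EEF2K, chr16:22206263-22206292, plus strand: tgcccgcccgcttctgctcaacctagacca
EIF2AK2, chr2:37156966-37156995, minus strand: gtccaaggggaaaacgaaactgagaaccag

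Most translation factor transcripts were slightly lower in the sgUSP22 libraries, and 3 were at least 1.5-fold higher. Of the 70 members, 67 passed the filter on low counts. At an adjusted p below 0.05 (quasi-likelihood test of edgeR, adjusted by Benjamini-Hochberg over all 15150 tested genes), 12 members were higher, 38 were lower and 17 were not called. The share of members called lower was 56.7%, against 25.8% of all tested genes, and the share called higher was 17.9%, against 26.8%. The changes were small. With a fold change of at least 1.5 added, 3 of 67 members were higher (*EIF5*, *EEF2K* and *EEF1AKNMT*) and 0 were lower. Both shares were below those of all tested genes, of which 8.88% were called higher and 7.25% lower. The count of 0 was also 0 at an unadjusted p below 0.05 with the same fold change and 0 by DESeq2, but it was 2 after correction for GC content and transcript length (*EIF2AK2* and *EEF1AKMT2*) and 1 without sgUSP22 replicate 2 (*EIF3C*). The median log2 fold change of the 67 members was -0.13, with 20 above and 47 below 0, and the median of all tested genes was 0.00091. Individual members ranged from -0.50 to 1.41. The control and sgUSP22 libraries did not overlap in 59 of 67 members, or 88.1%, against 75.9% of all tested genes.

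**Figure D1:**
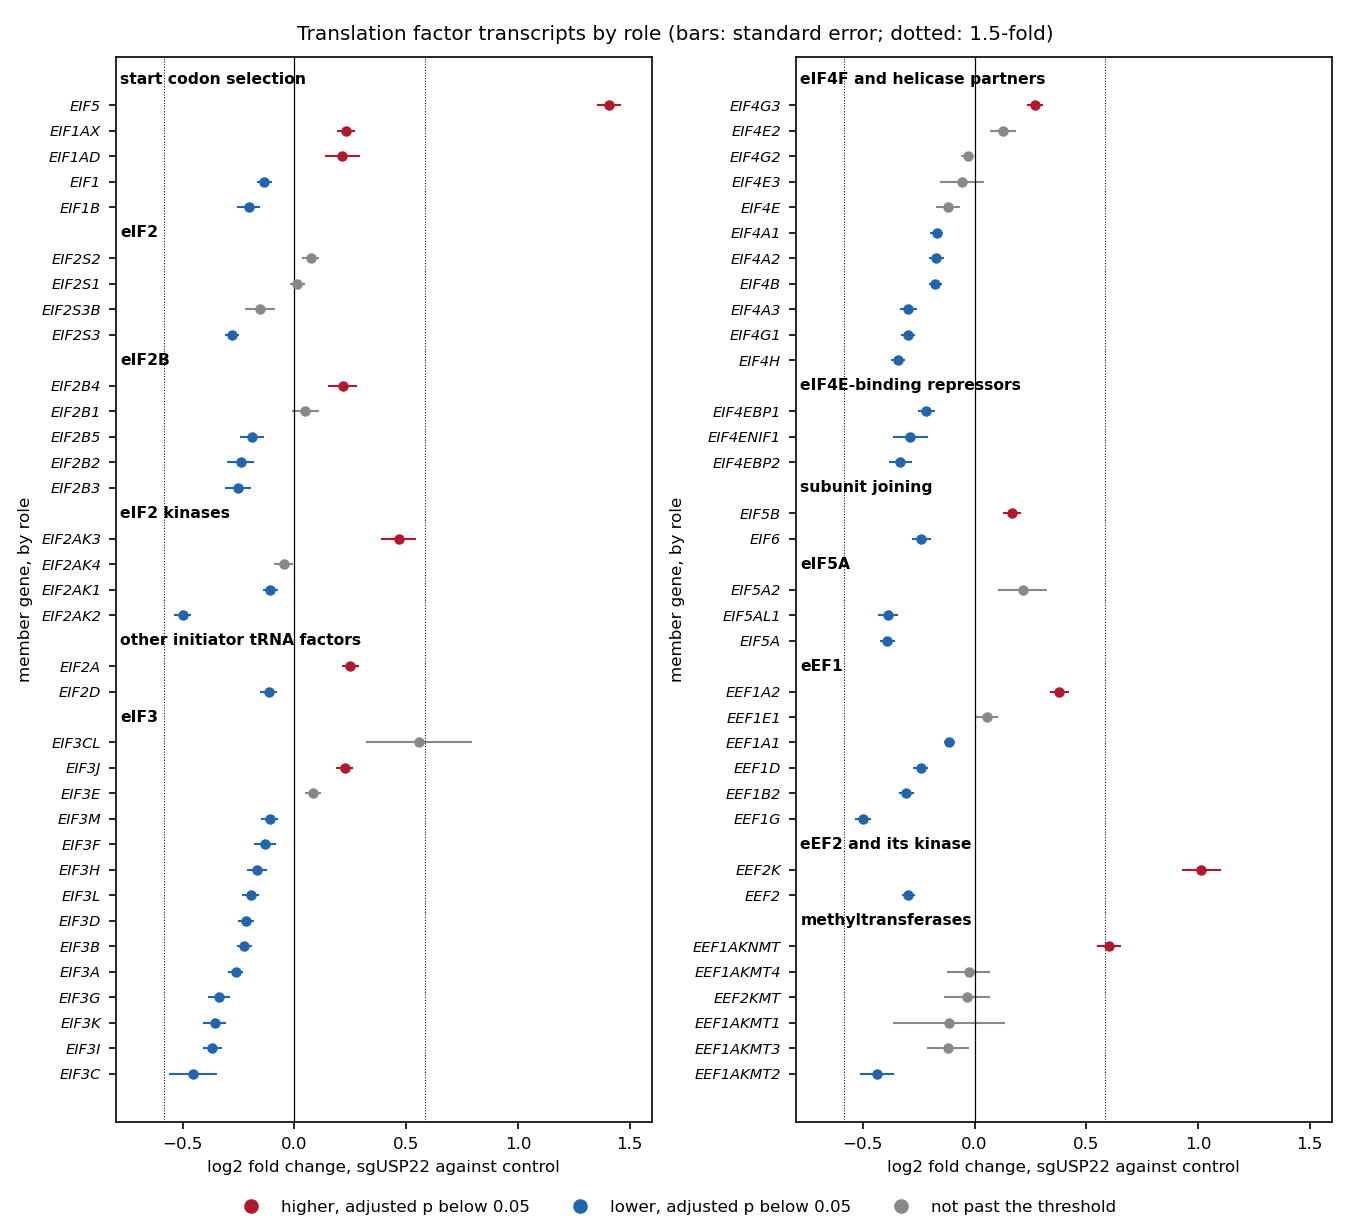
Log2 fold change of each of the 67 tested members (x axis, sgUSP22 against control), grouped by role, with bars for the standard error and dotted lines at 1.5-fold. Most points lie between 0 and -0.50, and *EIF5*, *EEF2K* and *EEF1AKNMT* lie beyond the upper dotted line.

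The members not tested were *EIF4EBP3* (2, 0, 0 and 2 counts), the oocyte-type cap-binding gene *EIF4E1B* (0 counts in all 4 libraries) and *EIF1AY*, whose level is not given. The other members were abundant, with a median of 155.0 CPM (counts scaled to the TMM-normalised library size) against 23.2 CPM for all tested genes. Scaled by transcript length, the median member had 54.1 CPM per kilobase and the median tested gene 7.37. *EEF1A1* had the highest CPM of all 15150 tested genes. Together the members held 2.84% and 2.85% of all counts in the control libraries and 2.64% and 2.60% in the sgUSP22 libraries. *EEF1A1* and *EEF2* alone gave 38.9% to 39.9% of the members' counts.

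Among the factors that select the start codon, *EIF5* stood out. *EIF5* (ENSG00000100664.11, chr14:103333544-103345025, plus strand in hg38) encodes the GTPase-activating protein of eIF2. Its counts were 3799 and 3480 in control and 10131 and 10281 in sgUSP22 libraries. Both sgUSP22 libraries lay far above both control libraries. The level rose from 59.0 ± 4.61 to 156.7 ± 3.60 CPM (SD, n = 2 each), a log2 fold change of 1.41 (SE 0.054, edgeR adjusted p = 5.61e-08) and the 74th smallest p-value of all tested genes. The change was between 1.22 and 1.49 under every alternative run.

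*EIF1AX*, the X-linked gene of eIF1A, rose by far less. It had 11248 and 10809 counts in control and 13878 and 13504 counts in sgUSP22 libraries, a log2 fold change of 0.23 (SE 0.040, edgeR adjusted p = 0.000846) that was -0.017 after correction for GC content and transcript length. *EIF1AD*, named after its eIF1A-like domain, was also called higher at 0.21 (edgeR adjusted p = 0.0422). The 2 genes of eIF1, which keeps the scanning subunit from stopping at a wrong codon, went the other way. *EIF1* had 45011 and 44805 counts in control and 44256 and 42176 counts in sgUSP22 libraries, and its log2 fold change was -0.13 (SE 0.032, edgeR adjusted p = 0.00601), with an adjusted p of 0.0509 without sgUSP22 replicate 2 and a change of -0.082 with library size alone. *EIF1B* changed by -0.20. By level per kilobase of transcript, *EIF1* had 297.6 CPM and *EIF5* had 18.9 CPM.

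**Figure D2:**
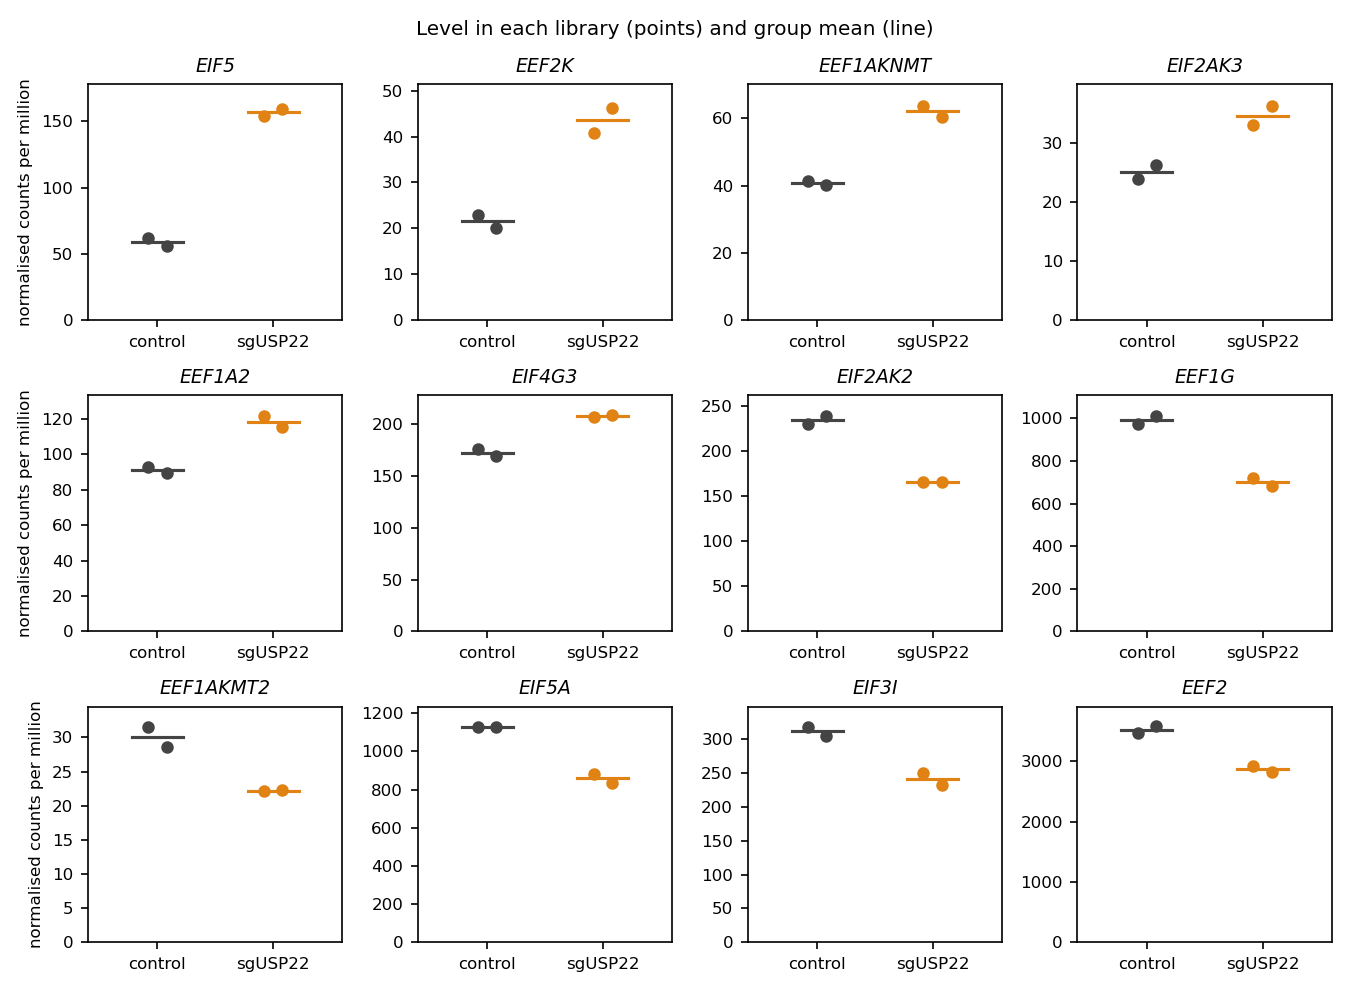
Level of 12 members in CPM (y axis, from 0) in each control and sgUSP22 library, with points for libraries and lines for group means. In all 12 the groups do not overlap, which all but *EEF2* were picked for, and 75.9% of all tested genes do not overlap either. The largest gap between group means, relative to the control mean, is that of *EIF5* (59.0 against 156.7 CPM).

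The subunits of eIF2 changed little. *EIF2S1*, the alpha subunit that the stress kinases phosphorylate, had 228 ± 0.842 CPM in control and 229.9 ± 0.192 CPM in sgUSP22 libraries (SD, n = 2 each), a log2 fold change of 0.013 (SE 0.034, edgeR adjusted p = 0.778). The beta subunit *EIF2S2* gave 0.073 (edgeR adjusted p = 0.130). The gamma subunit *EIF2S3*, which binds GTP and the initiator tRNA, was the most abundant of the 4 genes and the only one called. It had 62268 and 61996 counts in control and 54513 and 53576 counts in sgUSP22 libraries, a log2 fold change of -0.28 (SE 0.030, edgeR adjusted p = 3.74e-05). Its retrogene *EIF2S3B* had 4.09% to 4.80% of the pair's counts, and with their counts summed the change was -0.27 (edgeR adjusted p = 3.38e-05). The coding sequences of the pair differ at 25 of 1416 bases, so reads may have been split between them.

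In the exchange factor eIF2B, 3 of 5 subunits were called lower and 1 higher. The share lower was 60%, against 56.7% of all members and 25.8% of all tested genes. *EIF2B3*, *EIF2B2* and *EIF2B5* fell by 0.25, 0.24 and 0.19 on the log2 scale. *EIF2B4* had 2599 and 2386 counts in control and 3010 and 3107 counts in sgUSP22 libraries, and rose by 0.22 (SE 0.065, edgeR adjusted p = 0.0177), a call that was lost without control replicate 2 (0.14, adjusted p = 0.109) and without sgUSP22 replicate 2 (0.18, adjusted p = 0.123), as it was without the filter on low counts (adjusted p = 0.0593). Corrected for GC content and length, *EIF2B4* was at 0.34. The alpha subunit *EIF2B1*, with the highest CPM of the group when length is not taken into account, had 3821, 3460, 4009 and 3941 counts and was not called (0.047, edgeR adjusted p = 0.548).

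Of the 4 kinases of eIF2 alpha, 1 was higher, 2 were lower and 1 was not called. The share lower was 50%, against 56.7% of all members and 25.8% of all tested genes. *EIF2AK3* encodes PERK, the kinase that senses unfolded protein in the endoplasmic reticulum. It had 1457 and 1631 counts in control and 2161 and 2339 counts in sgUSP22 libraries, and rose from 25.0 ± 1.59 to 34.6 ± 2.37 CPM (SD, n = 2 each), a log2 fold change of 0.47 (SE 0.078, edgeR adjusted p = 0.000682). *EIF2AK2* (ENSG00000055332.19, chr2:37099210-37157522, minus strand in hg38) encodes PKR, the interferon-induced kinase that binds double-stranded RNA. Its counts were 14045 and 14919 in control and 10913 and 10694 in sgUSP22 libraries. The groups were well apart, and the level fell from 234.7 ± 6.22 to 165.8 ± 0.292 CPM (SD, n = 2 each), a log2 fold change of -0.50 (SE 0.037, edgeR adjusted p = 3.12e-06) that was the lowest of all members. After correction for GC content and transcript length it was -0.81. *EIF2AK2* overlaps *GPATCH11* on the opposite strand, which had 1322 and 1338 counts in control and 2221 and 2249 in sgUSP22 libraries, and without a stated strand setting reads in the overlap cannot be told apart.

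*EIF2AK1*, which encodes the heme-regulated kinase HRI, had 15148 and 15409 counts in control and 15306 and 14645 counts in sgUSP22 libraries. The change was small, with a log2 fold change of -0.11 (SE 0.035, edgeR adjusted p = 0.0250), and the call was lost with library size alone (adjusted p = 0.199) and without control replicate 1 (0.0771), control replicate 2 (0.0564) or sgUSP22 replicate 2 (0.122). *EIF2AK4*, the amino acid sensor GCN2, overlapped between the groups and was not called (-0.048, edgeR adjusted p = 0.370). The 2 regulatory subunits of the phosphatase that reverses eIF2 alpha phosphorylation are no members by symbol, and both passed the 1.5-fold threshold in opposite directions. *PPP1R15A*, the stress-induced subunit GADD34, had 28519 and 27818 counts in control and 7078 and 6744 counts in sgUSP22 libraries, a log2 fold change of -2.11 (SE 0.040, edgeR adjusted p = 8.90e-10). *PPP1R15B*, the constitutive subunit CReP, had 15355 and 16130 against 27247 and 27140 counts, a log2 fold change of 0.71 (SE 0.034, edgeR adjusted p = 2.49e-07).

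**Figure D3:**
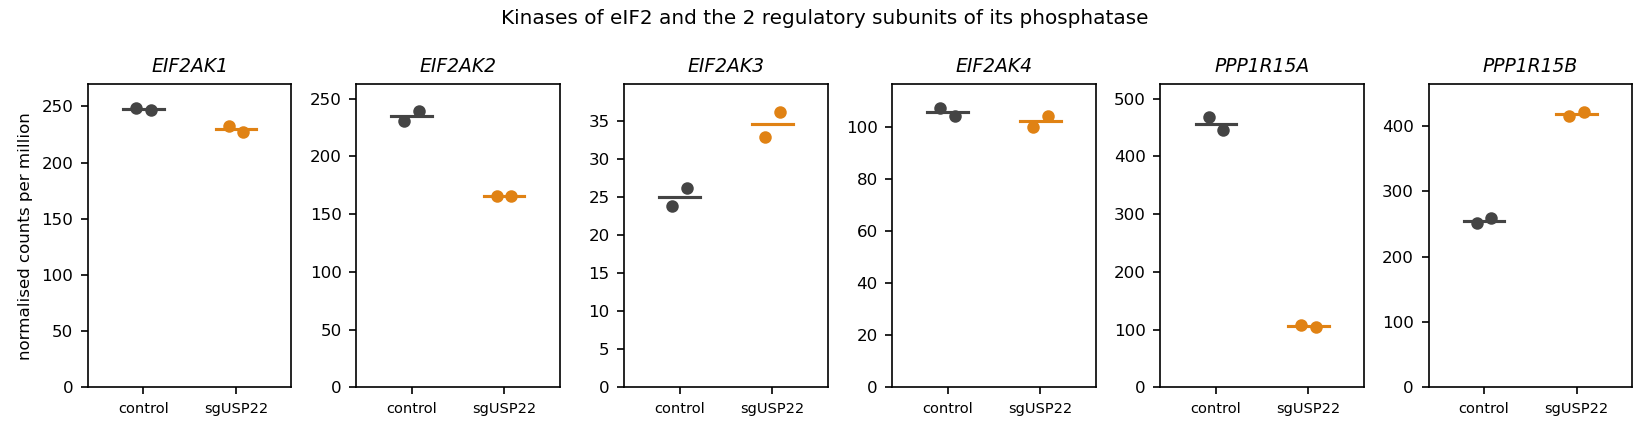
Level in CPM (y axis, from 0) of the 4 eIF2 kinases and of *PPP1R15A* and *PPP1R15B* in each library, with points for libraries and lines for group means. *EIF2AK3* and *PPP1R15B* are higher and *EIF2AK2* and *PPP1R15A* lower in both sgUSP22 libraries than in both control libraries, and *EIF2AK4* overlaps.

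Of the other factors that handle the initiator tRNA, *EIF2A* rose and *EIF2D*, which acts in reinitiation and recycling, fell by 0.12. *EIF2A* had 8535 and 8948 counts in control and 10855 and 11083 counts in sgUSP22 libraries, a log2 fold change of 0.25 (SE 0.039, edgeR adjusted p = 0.000422). It was 0.077 (adjusted p = 0.107) after correction for GC content and transcript length. Among the factors of subunit joining, *EIF5B*, the GTPase that joins the large subunit, had 11235 and 10914 against 12920 and 13358 counts, a log2 fold change of 0.17 (SE 0.042, edgeR adjusted p = 0.00729) that became -0.070 after the same correction and lost its call without sgUSP22 replicate 2 (0.13, adjusted p = 0.0531). *EIF6*, which keeps free large subunits from joining, fell by 0.24 (edgeR adjusted p = 0.000974).

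The scaffold eIF3, the largest initiation factor, was the group with the most members called lower and also with the most tested genes. Its share called lower was 78.6%, against 25.8% of all tested genes and 100% of the eIF4E-binding repressors. Of its 14 tested genes 11 were lower, 1 was higher and 2 were not called, and their median log2 fold change was -0.21. *EIF3I* had 19362 and 19004 counts in control and 16414 and 14991 counts in sgUSP22 libraries and fell by 0.37 on the log2 scale. *EIF3K*, with 9515 and 8906 against 7876 and 7318 counts, fell by 0.36. *EIF3G*, with 10749 and 11700 against 9859 and 8886 counts, fell by 0.34. These 3 were named as members called without overlap in CPM, and their edgeR adjusted p-values were between 6.72e-05 and 0.000295. With GC content and transcript length corrected, *EIF3K* was at -0.20 and *EIF3G* at -0.14 (adjusted p = 0.0225). Subunits A, B, D, L, H, F and M fell by 0.26, 0.22, 0.22, 0.20, 0.17, 0.13 and 0.11 on the same scale, with *EIF3F* nearest the threshold (edgeR adjusted p = 0.0481). The exceptions were *EIF3E*, at 0.083 (edgeR adjusted p = 0.0730), and *EIF3J*, a loosely bound subunit that lies near the mRNA entry channel. *EIF3J* had 6940 and 6941 counts in control and 8564 and 8581 counts in sgUSP22 libraries, a log2 fold change of 0.23 (SE 0.038, edgeR adjusted p = 0.000715), and after correction for GC content and transcript length it was 0.058 (adjusted p = 0.204).

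The values of *EIF3C* depended on how reads were divided with a near-identical copy. *EIF3C* (chr16:28688558-28735727, plus strand) and *EIF3CL* (chr16:28379579-28403841, minus strand) share sequence over most of their length, with 97.0% of all 100-base windows of the *EIF3C* transcript found unchanged in that of *EIF3CL*. *EIF3C* had 53028 and 52379 counts in control and 34665 and 46589 counts in sgUSP22 libraries, a log2 fold change of -0.45 (SE 0.107, edgeR adjusted p = 0.00548), which missed the threshold with DESeq2 (adjusted p = 0.0935) and without the filter on low counts (adjusted p = 0.0675). *EIF3CL* had 12742 and 13604 against 27718 and 13321 counts, so that its groups overlapped and it was not called (0.56, SE 0.237, edgeR adjusted p = 0.0738). *EIF3CL* held 19.4% and 20.6% of the pair's counts in control, and 44.4% and 22.2% in sgUSP22 libraries. The uneven share was that of sgUSP22 replicate 1. Without sgUSP22 replicate 1 the change of *EIF3C* was -0.26, and without sgUSP22 replicate 2 it was -0.70. Summed, the pair had 65770 and 65983 counts in control and 62383 and 59910 counts in sgUSP22 libraries, and the log2 fold change of the sum was -0.19 (SE 0.030, edgeR adjusted p = 0.000500), a change near the median of eIF3.

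**Figure D4:**
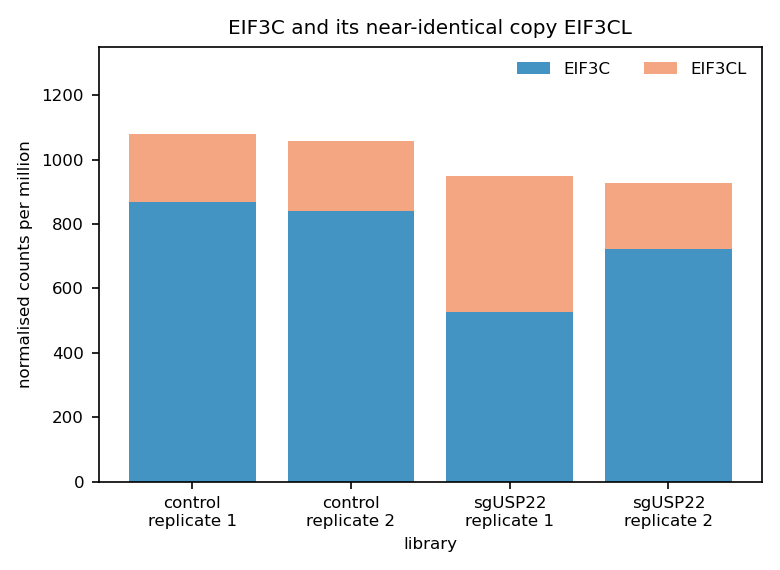
Normalised CPM (y axis, from 0) of *EIF3C* (lower part of each bar) and *EIF3CL* (upper part) in each of the 4 libraries. The summed bars are 1078 and 1058 CPM in control and 949 and 928 CPM in sgUSP22 libraries, and the upper part is tallest in sgUSP22 replicate 1.

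In the cap-binding complex and its helicase partners, 6 of 11 tested genes were lower, 1 was higher and 4 were not called. The share lower was 54.5%, against 56.7% of all members and 25.8% of all tested genes. *EIF4E*, the cap-binding protein itself, had 4420 and 4170 counts in control and 4345 and 4020 counts in sgUSP22 libraries and was not called (-0.12, SE 0.055, edgeR adjusted p = 0.0989). The scaffold *EIF4G1*, which ties the cap-binding protein to the helicase and to eIF3, had 44141 and 44222 against 38723 and 37196 counts and fell by 0.30 (edgeR adjusted p = 3.53e-05). Its paralog *EIF4G3* moved the opposite way, with 10740 and 10567 counts in control and 13638 and 13493 counts in sgUSP22 libraries, a log2 fold change of 0.27 (SE 0.037, edgeR adjusted p = 0.000191) that was 0.16 with GC content and length corrected. *EIF4G2*, the paralog DAP5 that lacks the site for eIF4E, was not called (-0.030, edgeR adjusted p = 0.430). By level per kilobase the 3 scaffolds had 120.2, 29.8 and 210.5 CPM for *EIF4G1*, *EIF4G3* and *EIF4G2*.

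*EIF4A1*, the main RNA helicase of the complex, had 90656 and 94333 counts in control and 88500 and 85155 counts in sgUSP22 libraries, a log2 fold change of -0.17 (SE 0.028, edgeR adjusted p = 0.000661) that was -0.10 with GC content and length corrected. A read-through locus that contains it, *SENP3-EIF4A1*, took 7972 counts in control replicate 1 and 304 to 418 in the other libraries. Summed with it, *EIF4A1* was at 1617 and 1518 CPM in control and 1351 and 1325 CPM in sgUSP22 libraries. *EIF4A2*, a close paralog that shares 0% of 100-base windows with *EIF4A1*, also changed by -0.17, and *EIF4A3*, the helicase of the exon junction complex, by -0.30. The 2 cofactors of the helicase fell too. *EIF4H* had 32117 and 32610 counts in control and 27073 and 26894 counts in sgUSP22 libraries, a log2 fold change of -0.34 (SE 0.031, edgeR adjusted p = 1.37e-05), and *EIF4B* changed by -0.18 (edgeR adjusted p = 0.000605).

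All 3 tested repressors of the cap-binding protein were lower, as were 56.7% of all members and 25.8% of all tested genes. *EIF4EBP1*, the mTOR target that holds eIF4E away from its scaffold, had 17733 and 17927 counts in control and 16788 and 15662 counts in sgUSP22 libraries, a log2 fold change of -0.22 (SE 0.037, edgeR adjusted p = 0.000875) that was 0.013 after correction for GC content and transcript length. *EIF4EBP2* had 2973 and 3093 against 2530 and 2557 counts and fell by 0.33 (edgeR adjusted p = 0.000477). *EIF4ENIF1*, the transporter that carries eIF4E into the nucleus, fell by 0.29 (edgeR adjusted p = 0.0123). By level per kilobase, *EIF4EBP1* (325.3 CPM) stood above *EIF4E* (27.6 CPM), and *EIF4EBP2* below it (5.89 CPM).

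The elongation factor eIF5A, which carries the modified lysine hypusine and helps the ribosome through stretches of proline, was lower. *EIF5A* (ENSG00000132507.18, chr17:7306999-7312463, plus strand) had 68828 and 70233 counts in control and 58053 and 53924 counts in sgUSP22 libraries. The level fell from 1127 ± 2.12 to 859 ± 34.0 CPM (SD, n = 2 each), a log2 fold change of -0.39 (SE 0.034, edgeR adjusted p = 9.09e-06) that was -0.23 with GC content and length corrected. *EIF5AL1* on chromosome 10, a copy near-identical in coding sequence, had 6524 and 6940 against 5615 and 5260 counts and the same change of -0.39 (SE 0.044, edgeR adjusted p = 5.54e-05). It held 8.66% to 8.99% of the pair's counts in every library. Their coding sequences differ at 5 of 462 bases, counted from 1 at the start codon as C12T, C106T, C123G, A133G and G326C, with the base of *EIF5A* first. Over whole transcripts, 12.5% of 100-base windows of *EIF5A* were found unchanged in *EIF5AL1*, and 3.83% the other way. Bases 74 to 133 of the coding sequence of each are shown, from GENCODE transcripts, with differing bases in capitals. No other window of this length holds more of the differences. Reads that cover a capital can be told apart, and reads within the coding sequence that miss all 5 differences fit both genes.
EIF5A: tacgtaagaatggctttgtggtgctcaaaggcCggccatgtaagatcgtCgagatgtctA
EIF5AL1: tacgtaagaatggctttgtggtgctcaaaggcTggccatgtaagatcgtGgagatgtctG
Summed over the pair the change was -0.39 (edgeR adjusted p = 7.82e-06). The second paralog, *EIF5A2*, was at 7.93 and 9.20 CPM on average and was not called (0.22, edgeR adjusted p = 0.129).

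In the elongation factor eEF1, 4 of 6 genes were lower and 1 was higher. The share lower was 66.7%, against 56.7% of all members and 25.8% of all tested genes. *EEF1A1*, which delivers aminoacyl-tRNA, had 474096 and 499171 counts in control and 483638 and 466926 counts in sgUSP22 libraries. It fell from 7887 ± 160 to 7296 ± 89.7 CPM (SD, n = 2 each), a log2 fold change of -0.11 (SE 0.024, edgeR adjusted p = 0.00264). Without sgUSP22 replicate 2 its adjusted p was 0.0502, and the change was -0.19 with GC content and length corrected and -0.060 with library size alone. The tissue-restricted paralog *EEF1A2*, usually found in muscle and neurons, went up. It had 5658 and 5567 counts in control and 7995 and 7434 counts in sgUSP22 libraries, a log2 fold change of 0.38 (SE 0.044, edgeR adjusted p = 6.49e-05) that was 0.57 with GC content and length corrected. The 2 transcripts share 0% of 100-base windows, and *EEF1A2* made up 1.18% and 1.10% of their summed counts in control and 1.63% and 1.57% in sgUSP22 libraries.

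The 3 subunits of the exchange factor eEF1B were lower, the gamma subunit most. *EEF1G* had 59353 and 62921 counts in control and 47255 and 44137 counts in sgUSP22 libraries. The sgUSP22 libraries lay clearly below, and the level fell from 991 ± 24.9 to 701 ± 25.0 CPM (SD, n = 2 each), a log2 fold change of -0.50 (SE 0.035, edgeR adjusted p = 2.60e-06). *EEF1B2*, the alpha subunit, had 23776 and 24991 against 21231 and 20440 counts and fell by 0.31 (edgeR adjusted p = 4.82e-05). *EEF1D*, the delta subunit, fell by 0.24 (edgeR adjusted p = 0.000244). *EEF1E1*, a part of the tRNA synthetase complex, was not called (0.055, edgeR adjusted p = 0.386).

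The translocase and its kinase changed in opposite directions. *EEF2* had 211395 and 223366 counts in control and 192211 and 181810 counts in sgUSP22 libraries, a log2 fold change of -0.30 (SE 0.029, edgeR adjusted p = 2.07e-05) that was -0.17 with GC content and length corrected. *EEF2K* (ENSG00000103319.12, chr16:22206278-22288738, plus strand) encodes the kinase that inactivates eEF2 when nutrients or energy run low. It had 1403 and 1252 counts in control and 2685 and 2983 counts in sgUSP22 libraries. The level rose from 21.5 ± 2.08 to 43.5 ± 3.78 CPM (SD, n = 2 each), a log2 fold change of 1.02 (SE 0.087, edgeR adjusted p = 8.61e-06), and all alternatives run gave 0.92 to 1.12. By level per kilobase, *EEF2K* had 4.40 CPM and *EEF2* had 1012 CPM.

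Of the 6 methyltransferases that modify eEF1A or eEF2, 1 was higher, 1 was lower and 4 were not called. Each share, 16.7%, was below that of all tested genes (26.8% higher and 25.8% lower). *EEF1AKNMT* (*METTL13*, ENSG00000010165.20, chr1:171781660-171814023, plus strand) methylates the N terminus and a lysine of eEF1A. It had 2525 and 2515 counts in control and 4184 and 3898 counts in sgUSP22 libraries, and rose from 40.9 ± 0.775 to 62.0 ± 2.32 CPM (SD, n = 2 each). Its log2 fold change of 0.60 (SE 0.052, edgeR adjusted p = 9.66e-06), or 1.52-fold, lay just inside the 1.5-fold threshold, and it was 0.58 without control replicate 2 and 0.55 without sgUSP22 replicate 1, below the threshold. Just outside on the upper side, among the called members, was *EIF2AK3* (1.38-fold). *EEF1AKMT2*, which methylates another lysine of eEF1A, had 1921 and 1786 counts in control and 1454 and 1441 counts in sgUSP22 libraries, a log2 fold change of -0.44 (SE 0.076, edgeR adjusted p = 0.000900) that was -0.63 after correction for GC content and transcript length.

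By mean level per kilobase, the members called lower lay between 5.89 and 2162 CPM, and the 5 members called higher by more than 0.3 on the log2 scale between 4.40 and 59.1 CPM. The 9 genes listed as classical TOP mRNAs were *EEF1A1*, *EEF1B2*, *EEF1D*, *EEF1G*, *EEF2*, *EIF3E*, *EIF3F*, *EIF3H* and *EIF4B*. Of these, 8 were lower (88.9%), 0 were higher and *EIF3E* was not called, with a median of -0.18. Among all members 56.7% were lower, with a median of -0.13, and among all tested genes 25.8% were lower. By sequence, a pyrimidine start, as in the windows above, was defined as a RefSeq first base C followed by at least 4 bases that are C or T on the transcribed strand. A gene was counted if any of its listed starts was of this kind. Such a start was present in 13 of 53 tested members with an entry in the table, or 24.5%. The share was 7.21% of 11360 tested genes and 4.07% of all 35116 starts. *EEF1B2* and *EIF2S3B*, among the 13, each also had a start without a run. Of these 13 members, 11 were lower, 1 (*EIF2A*) was higher and *EIF2S3B* was not called, and their median log2 fold change was -0.17. The 40 members without it had 20 lower and 10 higher, and a median of -0.13. Of all 819 tested genes with a pyrimidine start, 36.4% were called lower and 23.9% higher, with a median of -0.055, and of the 10541 without, 25.9% were lower and 28.7% higher, with a median of 0.016. *EEF1G* was lower without a run at its RefSeq start. *EEF1D*, *EIF3E* and *EIF3H* had no entry.

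**Figure D5:**
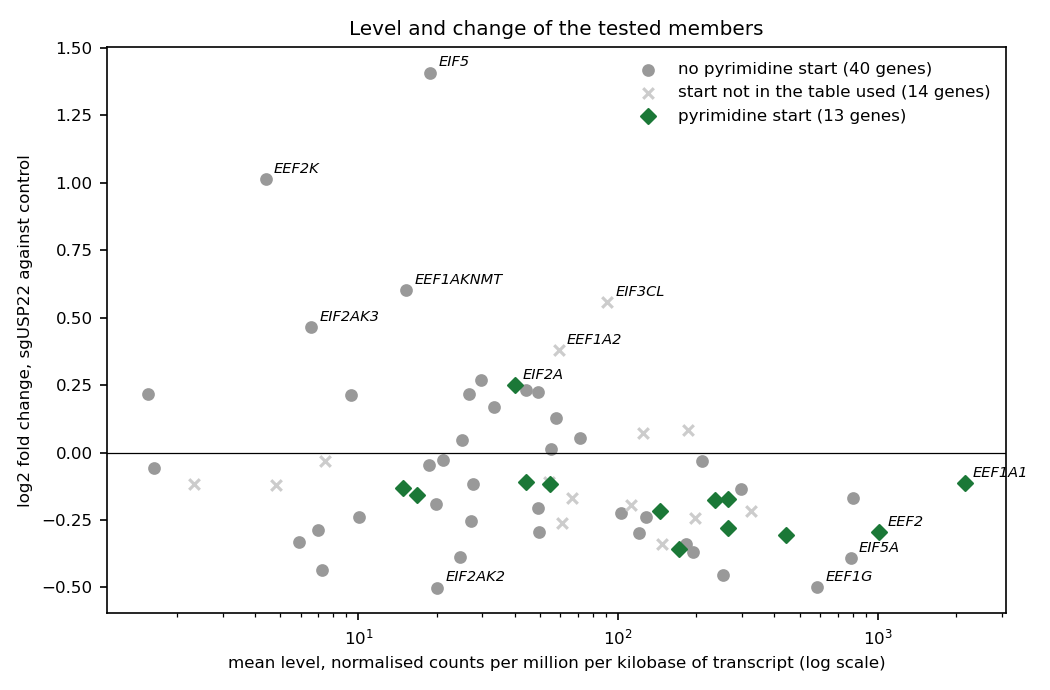
Log2 fold change (y axis, sgUSP22 against control) against mean level per kilobase of transcript (x axis, log scale) for the 67 tested members, with diamonds for a pyrimidine start, circles for none and crosses for genes without an entry. Diamonds lie below 0 except *EIF2A*, and the members above 0.3 lie to the left of the most abundant factors.

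Of the members called lower, 4 lay in a region where most tested genes were also called lower. On chromosome 10 beyond 40 Mb, 265 of 428 tested genes were called lower, or 61.9%, against 25.8% of all tested genes. Their median log2 fold change was -0.40. The 4 members there, *EIF4EBP2*, *EIF5AL1*, *EIF3A* and *EEF1AKMT2*, were all lower, with a median of -0.36. Reads may have been divided between *EIF5AL1* and *EIF5A* on chromosome 17, and both changed by -0.39. Most of the 63 tested members elsewhere were lower too, with 34 lower (54.0%) and 12 higher, and a median of -0.12. The part of chromosome 10 in the changes of these 4 was not tested.

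Of 45 other tested genes of translation that are no members by symbol, 11 were higher, 13 lower and 21 not called. Their median log2 fold change was 0.014. Their shares of 24.4% higher and 28.9% lower were near those of all tested genes (26.8% and 25.8%). Of the genes of termination and recycling 4 of 5 tested were higher, among them the release factors *ETF1* (0.23) and *GSPT1* (0.21). Both helicases that assist scanning were higher, *DDX3X* by 0.43 and *DHX29* by 0.29. The poly(A)-binding proteins *PABPC1* (-0.40) and *PABPC4* (-0.31), which bridge the mRNA tail to eIF4G, were lower, and of this group 3 of 5 fell. Among the genes that control eIF4F, 1 of 9 was higher, the S6 kinase *RPS6KB1* (0.56, edgeR adjusted p = 8.92e-06), and 2 were lower. *EEFSEC*, the elongation factor for selenocysteine, had 2359 and 2316 counts in control and 1589 and 1589 counts in sgUSP22 libraries, a log2 fold change of -0.64 (SE 0.065, edgeR adjusted p = 2.76e-05), past the 1.5-fold threshold. The hypusine enzyme *DOHH* fell by 0.36, and *DHPS* was not called. Of 7 diphthamide genes, which modify eEF2, 1 was higher and 2 were lower, and of 9 mitochondrial translation factors 2 were higher and 3 lower. Neither gene of eIF6 release was called.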

How the data were processed

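RNA-seq was measured in 2 control and 2 sgUSP22 libraries. Per the labels and methods, the authors aligned reads to hg38 with HISAT2 2.2.1 and deposited whole-number gene counts from StringTie 2.2.1, which derives counts from read coverage and can divide reads between copies unevenly. The annotation, strand setting and read length are not given in the sources used here. Columns were assigned by name, and 0 were left unassigned. Counts were analysed with edgeR 4.0.16 in R 4.3.3 (TMM factors, a minimum count of 10 in filterByExpr, then glmQLFit and glmQLFTest without covariates). Benjamini-Hochberg adjustment was over all 15150 tested genes. Standard errors were obtained by dividing the size of the log2 fold change by the square root of F. CPM are counts divided by the product of library size and TMM factor and scaled by 1e6, and per-kilobase levels divide them by the canonical transcript of GENCODE release 44, to which 25905 of 28278 symbols were matched. A call needs an adjusted p below 0.05, and where stated also a 1.5-fold change, the thresholds of the study. The procedure was tested on simulated data.

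The members and lists were chosen with earlier results of these data known. Named with the value in every library are the members past both thresholds, the 10 largest increases and 10 largest decreases past an adjusted p of 0.05 without overlap in CPM, the most abundant member of each role and members near a threshold, except that no level of a Y-linked member is given, and the pathway genes past both thresholds. Other named members are given to complete a role. Start windows come from RefSeq (GRCh38.p14), where 55 members other than *EIF1AY* had an entry, and copies were compared in GENCODE transcripts. Alternatives were DESeq2 1.42.0, RLE factors, upper quartile factors, no filter, library size alone, a replicate block, a minimum mean of 50 counts, correction for GC content and transcript length (lowess, span 0.3) and leaving out each library. Summing near-identical copies was added after seeing the data.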

Additional observations from a re-analysis of the deposited data

How the results depend on the processing

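The counts of members called higher were 9 to 16 and of members called lower 30 to 39 over all settings, against 12 and 38, and these, like the 3 members at least 1.5-fold higher, stayed within 1.5 times throughout. Members at least 1.5-fold lower numbered 2 instead of 0 under correction for GC content and transcript length (*EIF2AK2* and *EEF1AKMT2*), and 0 to 1 when 1 library was left out, the 1 being *EIF3C* without sgUSP22 replicate 2. The correction turned *EIF1AX* to -0.017, *EIF5B* to -0.070 and *EIF4EBP1* to 0.013 on the log2 scale. Leaving out 1 library gave *EIF2B1* values of -0.038 to 0.14. The median of members was -0.17 to -0.082 over the settings, the upper value with library size alone, which moved the median of all genes to 0.053. With library size alone 4 members, with *EIF3CL* added, were at least 1.5-fold higher. Leaving out 1 library gave 2 to 4. With the replicate block 13 members were higher, 38 lower, 3 at least 1.5-fold higher and 0 at least 1.5-fold lower. Same-numbered libraries deviated together with a correlation of 0.078, and no label ties them, so the replicate numbers are not taken as pairs. Of 260 comparisons of a named gene with an alternative other than leaving out a library, 251 kept direction and side of the threshold, 6 lost their call and 3 reversed. The causes were not tested, and with 2 libraries a group low-count members such as *EEF1AKMT1* have wide errors (SE 0.252).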

Other observations

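Read-through loci that contain a member were unevenly counted. *ANKHD1-EIF4EBP3* had 3182 and 2598 counts in control and 2208 and 8635 counts in sgUSP22 libraries, while *EIF4EBP3* itself had at most 2. *SENP3-EIF4A1* had 7972 counts in control replicate 1 and 372 in control replicate 2.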
